A study of Mus musculus with 4 samples.

Results

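The 7 genes of the cyclin-dependent kinase (CDK) inhibitors Cdkn1a, Cdkn1b, Cdkn1c, Cdkn2a, Cdkn2b, Cdkn2c and Cdkn2d, together with the retinoblastoma gene Rb1, were followed in mouse Th2 cells with and without Menin. These 8 genes were taken by symbol, out of 23283 symbols in all, and each stood on 1 line in every library. Th2 cells are the CD4 helper T cells that produce IL-4, IL-5 and IL-13. All libraries came from C57BL/6 mice, from splenic CD4 T cells cultured for 5 days with IL-2 (15 ng/ml) and IL-4 (10 ng/ml), and were either wild type (WT) or Menin KO. The longer culture, named as 3 weeks, began in the same way. It went on for 2 days with no cytokine added and for 5 days of renewed T cell receptor stimulation on immobilized antibody, in IL-2 and with IL-4 blocked by antibody, which is less time than its name gives. The sources used here do not give how the KO was made, from how many mice the cells came or whether any were pooled. WT and KO cells of each culture, 4 groups in all, were measured in 1 library per group, so none of the differences below has a replicate check or a p-value.

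CDK inhibitors restrain the kinases that carry a cell from G1 into S phase. The INK4 family (Cdkn2a to Cdkn2d) binds Cdk4 and Cdk6 and keeps them from the D cyclins, and the Cip/Kip family (Cdkn1a to Cdkn1c) binds complexes of cyclins with Cdk2 and other CDKs. When the kinases are held back, the Rb protein stays bound to E2F factors and the genes of DNA replication stay low. Lasting expression of Cdkn2a, Cdkn2b and Cdkn1a is a known feature of cell senescence. Menin, the product of Men1, works with MLL-type histone methyltransferases, and in endocrine cells it is known to maintain Cdkn1b and Cdkn2c.

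In GRCm38 with GENCODE M21 genes, Cdkn1a lies on chromosome 17 (29090976 to 29100727), Cdkn1b on 6 (134920401 to 134925513), Cdkn1c on 7 (143458339 to 143461050) and Cdkn2d on 9 (21288410 to 21291407). Cdkn2c lies on chromosome 4 (109660876 to 109667189), apart from Cdkn2a and Cdkn2b, whose places are given below with that of Rb1. Values are FPKM, the fragments of a transcript scaled to its length and to the depth of its library. Levels are set side by side between genes and between libraries, and the comparison between libraries depends on the scaling chosen. Depth inferred from the steps of the low values ranged from 20.7 to 23.6 M reads per library. Where 4 values follow each other they run WT then KO at 5 days and WT then KO at 3 weeks, and a pair of values runs WT then KO. A range in brackets after a ratio is its exact Clopper-Pearson 95% counting interval, which covers counting error only. Genes were counted as at least 2-fold apart on the log2(FPKM + 1) scale, which understates differences of low genes. Men1 itself was at 31.5% of the WT level in KO at 5 days (32.8 and 10.3 FPKM) and at 23.1% at 3 weeks (25.4 and 5.88 FPKM). The T helper markers Cd3d, Cd3e, Cd3g, Cd4 and Gata3 were well above 0 in every library, the lowest being Gata3 at 45.9 FPKM in KO 3-week against 93.8 FPKM in WT 3-week. Gata3 was the 1 of these 5 below WT at 3 weeks, and the other 4 were higher in KO. A bulk value cannot tell a larger share of expressing cells from more RNA per cell.

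**Figure D1:**
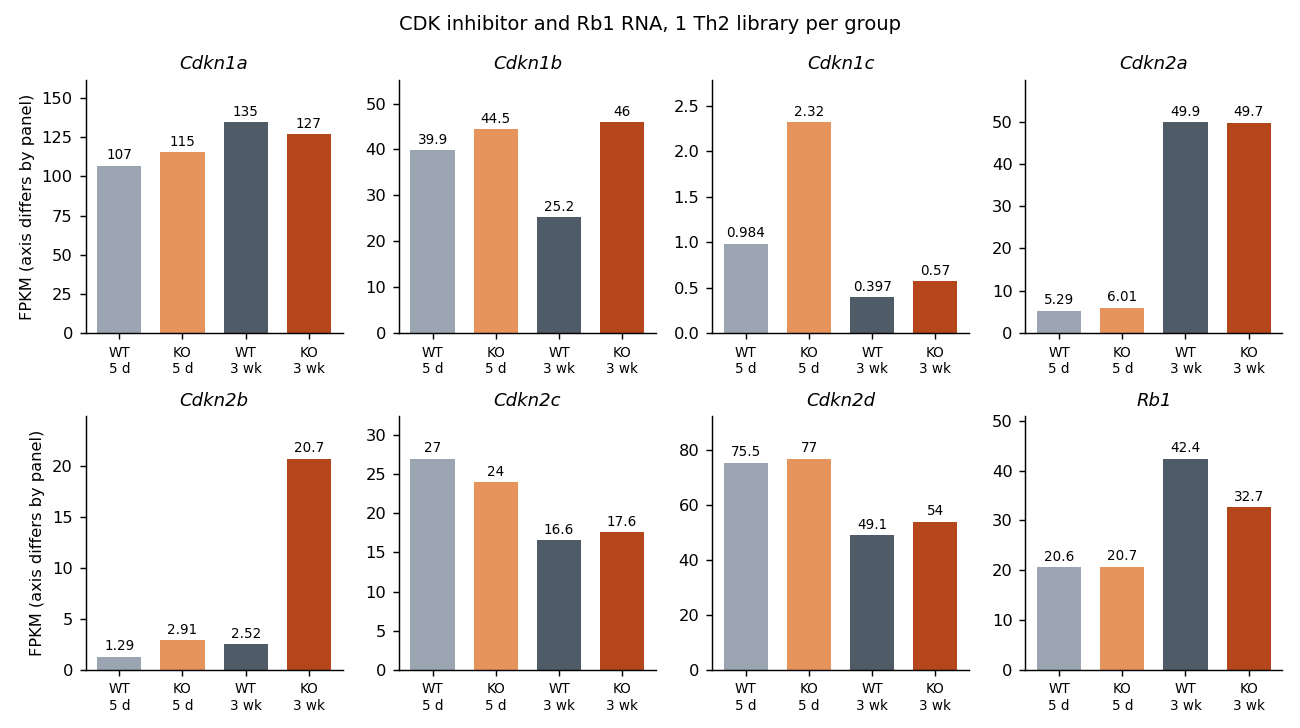
FPKM of the 8 genes (vertical axes from 0, scaled per panel) in the 4 libraries, 1 bar per library and therefore no error bars. Cdkn2b is high in KO 3-week alone (20.7 FPKM), whereas Cdkn2a is near 50 FPKM in both 3-week libraries and near 5 to 6 FPKM in both 5-day libraries.

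Cdkn2b, which encodes the INK4 inhibitor p15, stood furthest apart between the genotypes. It measured 1.29 (WT) and 2.91 (KO) FPKM at 5 days, and 2.52 (WT) and 20.7 (KO) FPKM at 3 weeks. The KO 3-week library was high and the other 3 were low, below 3 FPKM each. At 3 weeks KO stood 8.23-fold above WT (6.41 to 10.7, from about 533 and 71 reads), and at 5 days 2.27-fold above WT (1.48 to 3.54, about 79 and 32 reads). On the log2(FPKM + 1) scale the difference was 2.63 at 3 weeks, the 143rd highest of 10973 compared genes, and 0.78 at 5 days, under the 2-fold line. The genotype difference was thus 1.85 larger at 3 weeks on that scale, which was not tested.

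Markers of other cell types stood higher in the same KO 3-week library. All 4 NK cell markers (Ncr1, Klrb1c, Klrd1, Klre1) were above WT 3-week, with a summed level of 0.145 FPKM in WT and 13.5 FPKM in KO, most of it from Klrd1 at 11.1 FPKM. Of 7 matched myeloid and dendritic cell markers 4 were higher, with sums of 0.275 and 15.4 FPKM. They were Itgax (0.0497 and 8.63 FPKM), Itgam (0.0283 and 4.75 FPKM), Cd14 (0.0978 and 2.03 FPKM) and Flt3 (0 and 0.0267 FPKM), and the other 3, Lyz2, Csf1r and Fcgr1, were listed at 0 in KO 3-week. Of 4 mast cell and basophil markers 3 were higher, with sums of 10.5 and 18.3 FPKM, and Mcpt8 stood at 0.266 and 7.93 FPKM. Both CD8 T cell markers were higher, with sums of 2.04 and 3.77 FPKM. The 5-day sums were 2.05 and 5.96 FPKM for the NK markers, 0.392 and 3.54 FPKM for the myeloid markers, 14.6 and 25 FPKM for the mast cell and basophil markers and 4.38 and 5.70 FPKM for the CD8 markers. The B cell markers summed to 0.155 and 0.278 FPKM at 3 weeks, and the erythroid markers to 0.883 and 1.59 FPKM. Whether such cells were present was not tested, nor was any part of them in the Cdkn2b value.

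Cdkn2a, the neighbour of Cdkn2b, differed by culture and lay close between genotypes. One symbol covers both of its products, the INK4 inhibitor p16 and the p53 activator p19Arf, which start from separate first exons, so the single value per library does not divide them. Cdkn2a measured 5.29 (WT) and 6.01 (KO) FPKM at 5 days, and 49.9 (WT) and 49.7 (KO) FPKM at 3 weeks. Both 3-week libraries were high and both 5-day libraries low, and the 3-week over 5-day ratio was 9.44 in WT (7.43 to 12.2) and 8.27 in KO (6.65 to 10.4). In WT this was the 38th highest of all compared differences. Between genotypes the ratio was 1.14 at 5 days (0.827 to 1.56) and 0.995 at 3 weeks (0.898 to 1.10), and both intervals include 1.

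The 2 genes lie side by side on mouse chromosome 4 (GRCm38), both on the minus strand. Cdkn2a spans 89274471 to 89294653 and Cdkn2b spans 89306299 to 89311039, 11.6 kb away. Within a library, where scaling between libraries plays no part, Cdkn2b RNA was 0.243 (WT) and 0.485 (KO) of Cdkn2a RNA at 5 days, and 0.0504 (WT) and 0.417 (KO) at 3 weeks. The WT 3-week library was the low one. Mtap, a gene of methionine salvage that lies 93.4 kb beyond Cdkn2a, measured 7.78, 7.77, 18.1 and 8.90 FPKM in that order, high in WT 3-week and lower in the other 3.

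Cdkn2a and its neighbour Cdkn2b gave different patterns across the libraries, with a single value per library for both Cdkn2a starts together. The sequences before the starts of these genes are therefore shown, with that of Cdkn1b, described below, beside them. They come from RefSeq (build GRCm38.p6), are written 5′ to 3′ on the strand of the gene, and end before the first annotated base transcribed from that start. The stretch of the downstream Cdkn2a start lies within the span of the transcript from the upstream start. Capitals mark a GC box (GGGCGG) or a CCAAT box (CCAAT) on either strand. The stretches are chr4:89294654-89294869 (minus) for the upstream start of Cdkn2a, that of p19Arf, chr4:89282193-89282442 (minus) for the downstream start of Cdkn2a, that of p16, chr4:89311040-89311282 (minus) for Cdkn2b and chr6:134920151-134920400 (plus) for Cdkn1b.
Cdkn2a, upstream start: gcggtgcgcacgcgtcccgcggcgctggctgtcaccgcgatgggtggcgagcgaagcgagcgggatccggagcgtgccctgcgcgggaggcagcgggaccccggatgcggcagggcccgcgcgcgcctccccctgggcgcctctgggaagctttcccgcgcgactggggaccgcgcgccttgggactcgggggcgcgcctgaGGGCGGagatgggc
Cdkn2a, downstream start: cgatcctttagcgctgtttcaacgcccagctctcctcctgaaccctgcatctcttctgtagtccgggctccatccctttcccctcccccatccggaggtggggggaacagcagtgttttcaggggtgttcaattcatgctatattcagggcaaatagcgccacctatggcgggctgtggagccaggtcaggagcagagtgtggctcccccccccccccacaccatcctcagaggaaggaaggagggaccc
Cdkn2b: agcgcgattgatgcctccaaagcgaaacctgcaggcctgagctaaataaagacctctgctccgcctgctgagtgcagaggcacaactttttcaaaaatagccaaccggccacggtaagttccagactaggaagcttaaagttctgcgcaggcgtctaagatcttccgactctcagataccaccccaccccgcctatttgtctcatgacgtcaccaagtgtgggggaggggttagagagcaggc
Cdkn1b: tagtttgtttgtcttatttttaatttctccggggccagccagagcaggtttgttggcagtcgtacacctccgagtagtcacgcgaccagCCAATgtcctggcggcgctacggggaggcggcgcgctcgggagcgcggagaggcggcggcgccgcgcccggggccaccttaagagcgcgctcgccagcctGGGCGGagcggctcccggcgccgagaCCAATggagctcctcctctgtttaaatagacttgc

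The 250 bases before the start held 40 CG dinucleotides at the upstream Cdkn2a start, 7 at the downstream one, 12 at Cdkn2b and 28 at Cdkn1b, where the median of 32851 RefSeq starts was 6. This window reaches beyond the printed stretch at the upstream Cdkn2a start, where it holds a second GC box, and at Cdkn2b. A GC box lay before the upstream Cdkn2a start, the Cdkn1b start, the only listed Cdkn2d start, 1 of 2 Cdkn2c starts and 1 of 2 Cdkn1a starts, and before 32.7% of all starts. CCAAT was found at Cdkn1b and Cdkn2d, and at 33.8% of all starts. Both strands were searched. TTTGGCGC and TTTCGCGC, forms of the E2F site, were found at none of the 9 starts of 6 members, and at 0.654% of all starts. Other forms of the site were not searched. One such form, TTTCCCGC, stands in the printed stretch of the upstream Cdkn2a start, so absence of E2F sites cannot be read from this search. Neither a GC box nor CCAAT was found at Cdkn2b, at the downstream Cdkn2a start, or at the Cdkn2c and Cdkn1a starts without a GC box. None of the 9 starts held the FOXO word TGTTTAC (3.17% of all starts), the E box CACGTG (6.02%) or the AP-1 word TGANTCA (6.75%). The TATA box TATAAA (12.4%), the SMAD word GTCTAGAC (0.167%) and the KLF word GGGTGTG (6.93%) were likewise found at none of the 9. These are matches of letters in a short window and no evidence of binding. Cdkn1c and Rb1 had no entry in the table of starts.

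The other INK4 genes, Cdkn2c (p18) and Cdkn2d (p19Ink4d), were lower in both 3-week libraries than in both 5-day libraries and close between genotypes. Cdkn2c measured 27 (WT) and 24.0 (KO) FPKM at 5 days, and 16.6 (WT) and 17.6 (KO) FPKM at 3 weeks. Its KO to WT ratio was 0.889 at 5 days (0.808 to 0.977) and 1.06 at 3 weeks (0.946 to 1.19). Cdkn2d measured 75.5, 77.0, 49.1 and 54.0 FPKM in that order, with genotype ratios of 1.02 (0.956 to 1.09) and 1.10 (1.02 to 1.19). The 3-week over 5-day ratios were 0.615 in WT and 0.734 in KO for Cdkn2c, and 0.65 in WT and 0.701 in KO for Cdkn2d.

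The make-up of INK4 RNA therefore differed between the cultures more than its total did. The 4 genes summed to 109 (WT) and 110 (KO) FPKM at 5 days, and to 118 (WT) and 142 (KO) FPKM at 3 weeks. In these sums and shares Cdkn2a counts in full, with any RNA of p19Arf, which is not an INK4 inhibitor. Cdkn2d made up 69.2% of the sum in WT 5-day and 70.1% in KO 5-day, but 41.5% in WT 3-week and 38.0% in KO 3-week. Cdkn2a went the other way, with 4.85%, 5.47%, 42.3% and 35.0% in the same order. Cdkn2b made up 14.6% in KO 3-week and at most 2.65% in the other 3 libraries. Cdk4 and Cdk6, the kinases INK4 proteins bind, summed to 212, 185, 219 and 137 FPKM. The summed RNA of the 4 genes per unit of Cdk4 and Cdk6 RNA was thus 0.514, 0.595, 0.538 and 1.04, any p19Arf RNA included.

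**Figure D2:**
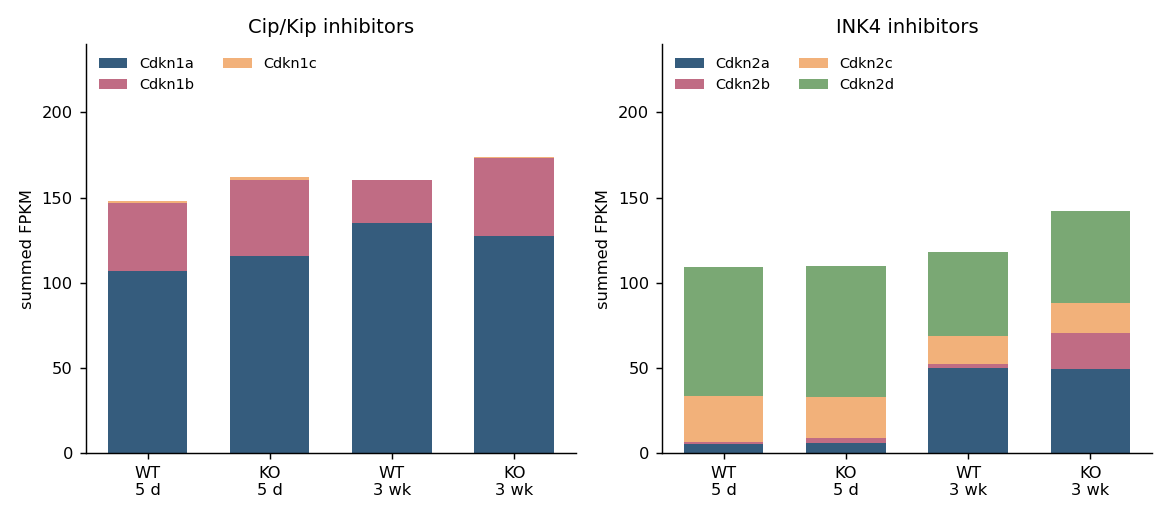
Summed FPKM of the Cip/Kip genes (left) and the INK4 genes (right) in the 4 libraries, stacked by gene, 1 library per bar. The INK4 bars are mostly Cdkn2d at 5 days and split between Cdkn2a and Cdkn2d at 3 weeks, and a Cdkn2b part of 20.7 FPKM is visible in KO 3-week. Cdkn2a counts in full, any p19Arf RNA included.

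Among the Cip/Kip genes, Cdkn1b (p27), known for holding resting T cells out of the cell cycle, differed most in FPKM at 3 weeks. It measured 39.9 (WT) and 44.5 (KO) FPKM at 5 days, and 25.2 (WT) and 46.0 (KO) FPKM at 3 weeks. The WT 3-week library was the low one, and the other 3 lay within 39.9 to 46.0 FPKM. KO stood 1.82-fold above WT at 3 weeks (1.70 to 1.95) and 1.11-fold at 5 days (1.05 to 1.19). On the log2(FPKM + 1) scale the 3-week difference was 0.84, under the 2-fold line, and 1101st from the top of 10973. From 5 days to 3 weeks the ratio was 0.631 in WT (0.588 to 0.678) and 1.03 in KO (0.974 to 1.10). These culture ratios share their libraries with the genotype ratios.

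The ubiquitin ligase genes that act on p27 protein stood mostly lower in KO. Skp2, the receptor that recognises p27, stood at 7.04, 5.64, 5.46 and 3.08 FPKM in that order, and its cofactor gene Cks1b at 113.7, 108.9, 117.0 and 55.1 FPKM. Of 8 genes of this route 7 were below 0 at 3 weeks, with a median log2 ratio of -0.43 against -0.08 over all compared genes. Cks1b was the 1 at least 2-fold lower, where 8.19% of all compared genes were. With upper-quartile scaling none of the 8 was counted. RNA levels do not give the amount of p27 protein.

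Cdkn1a (p21), a target of p53 and the most abundant of the 7 inhibitors, stayed within a narrow range. It measured 107 (WT) and 115 (KO) FPKM at 5 days, and 135 (WT) and 127 (KO) FPKM at 3 weeks. The KO to WT ratio was 1.08 at 5 days (1.03 to 1.13) and 0.944 at 3 weeks (0.903 to 0.986), and the second turned to a log2 difference of 0.05 with upper-quartile scaling. Trp53, which encodes p53, is on a list of factors given below, and 14 other p53 targets were compared. At 3 weeks 1 of them, the antiproliferative gene Btg2, was at least 2-fold higher (20.9 and 96.7 FPKM), and 2 were at least 2-fold lower, Zmat3 (21.5 and 8.52 FPKM) and the nuclease gene Aen (46.5 and 19.2 FPKM), where 7.97% of all compared genes were higher and 8.19% lower. Zmat3 was not counted with a pseudocount of 5. Of 6 genes of other ligases that act on p21 protein, Dtl was the 1 at least 2-fold lower in KO at 3 weeks (16.6 and 6.61 FPKM), a count of 0 with a pseudocount of 5. The p53 targets lay on both sides of 0, with 8 above and 6 below and a median of 0.27.

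Cdkn1c (p57), an imprinted inhibitor, was near the limit of the comparison. It measured 0.984 (WT) and 2.32 (KO) FPKM at 5 days, and 0.397 (WT) and 0.570 (KO) FPKM at 3 weeks, from about 35, 89, 16 and 21 reads. The KO 5-day library was the high one. At 5 days KO stood 2.36-fold above WT (1.58 to 3.61), which is 0.74 on the log2(FPKM + 1) scale. At 3 weeks the interval of 0.712 to 2.95 includes 1, so a difference was not detectable at this depth. An antisense gene overlaps Cdkn1c, and the sources used here do not say whether the authors' counting used strand, so reads of the pair cannot be told apart. The same holds for Cdkn1a, which an unclassified transcript overlaps, and for Rb1.

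Rb1, which encodes the pocket protein that the G1 kinases phosphorylate, was higher in both 3-week libraries. It measured 20.6 (WT) and 20.7 (KO) FPKM at 5 days, and 42.4 (WT) and 32.7 (KO) FPKM at 3 weeks. The 5-day values were alike (ratio 1.01, 0.945 to 1.07), and at 3 weeks KO was at 77.1% of WT (73.7% to 80.8%). The 3-week over 5-day ratio was 2.06 in WT (1.95 to 2.17) and 1.58 in KO (1.49 to 1.67). The WT value, 1.01 on the log2(FPKM + 1) scale, lay at the 2-fold line and fell under it with a pseudocount of 5 or with upper-quartile scaling.

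Rb1 spans 142 kb on chromosome 14 (73183673 to 73325822), and 2 coding genes on the other strand, Lpar6 and Rcbtb2, overlap it. Lpar6, a lysophosphatidic acid receptor gene, stood at 2.72, 2.60, 2.57 and 4.44 FPKM, and Rcbtb2 at 11.3, 11.2, 10.7 and 16.2 FPKM. Both were highest in KO 3-week, where Rb1 was below WT 3-week. Of the other pocket protein genes, Rbl2 (p130), linked to resting cells, stood at 39.4, 49.5, 68.7 and 56.4 FPKM, with both 3-week values above both 5-day values as in Rb1. Rbl1 (p107) stood at 33.2, 31.8, 23.3 and 21.9 FPKM, with both 3-week values lower.

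**Figure D3:**
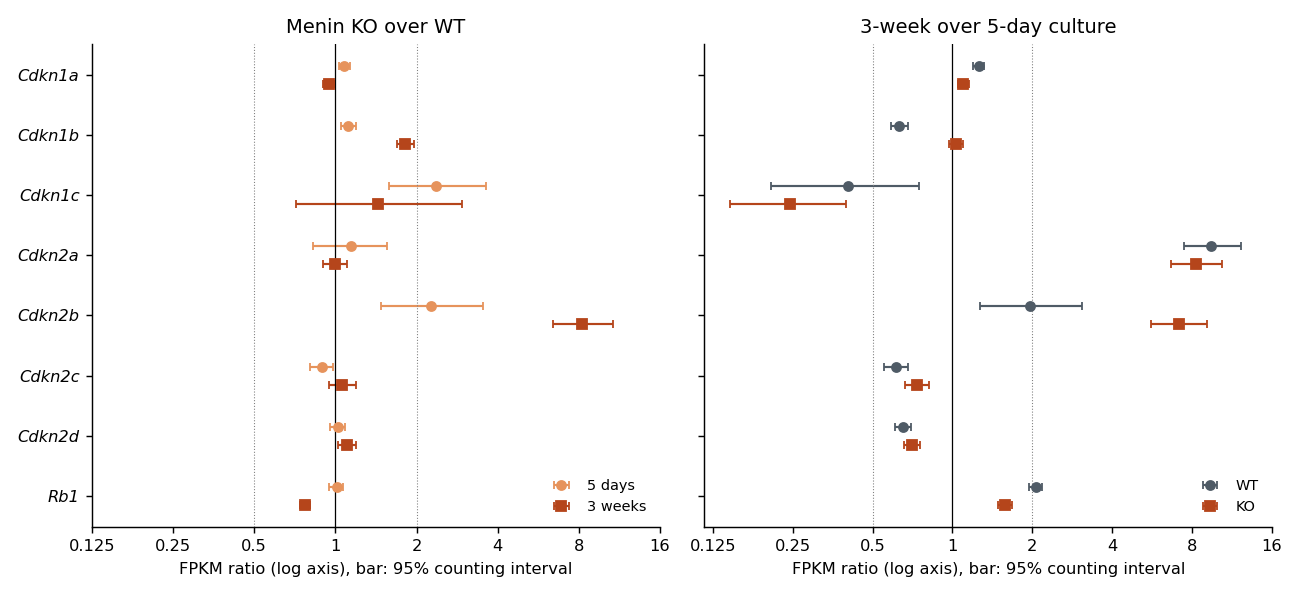
FPKM ratios of the 8 genes on a log axis, Menin KO over WT (left, at 5 days and at 3 weeks) and 3-week over 5-day culture (right, in WT and in KO). Points are ratios of single libraries, bars their 95% counting intervals, and dotted lines 2-fold. Cdkn2b at 3 weeks (8.23) is the widest genotype ratio, and Cdkn2a lies near 1 on the left and above 8 on the right.

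At 5 days none of the 8 genes passed the 2-fold line in either direction (0 higher, 0 lower), where 2.77% of the 10973 compared genes were higher and 0.82% lower. At 3 weeks 1 of 8 was higher, Cdkn2b, and 0 lower, where 7.97% of compared genes were higher and 8.19% lower. That is a share of the members close to the background. Of all genes past 2-fold at 3 weeks 49.3% were higher, and 60.6% with upper-quartile scaling, which moved the median of all genes from -0.08 to 0.03. The median log2 ratio of the 8 was 0.13 at 5 days and 0.11 at 3 weeks.

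From 5 days to 3 weeks in WT, 2 of 8 passed the 2-fold line upward (Cdkn2a and Rb1) and 0 downward, where 3.03% of compared genes were higher and 2.83% lower. In KO cells 2 of 8 were higher (Cdkn2a and Cdkn2b) and 1 lower (Cdkn1c), where the shares over all genes were 4.35% and 4.39%. The cultures differed in restimulation and cytokines as well as in time, which cannot be told apart.

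Downstream of the inhibitors, most listed kinase, E2F and replication genes lay below 0 in KO, with lower medians at 3 weeks than at 5 days, though few outside the E2F targets passed the 2-fold line. At 3 weeks Cdk4 stood at 179 FPKM in WT against 110 FPKM in KO (ratio 0.611, 0.583 to 0.640), Cdk6 at 40.2 and 27.2 FPKM, and Cdk2 at 42.1 and 25.0 FPKM. The D cyclins went another way, with Ccnd2 at 105 and 116 FPKM, Ccnd3 at 135 and 144 FPKM, and Ccnd1 below 1 FPKM in every library. The E cyclins Ccne1 and Ccne2, partners of Cdk2, stood at 26.1 and 17.2 FPKM and at 13.4 and 8.19 FPKM. Cdc25a, the phosphatase that activates Cdk2, was the 1 of 9 compared G1 and S genes at least 2-fold lower, at 19.7 and 6.19 FPKM, and 7 of 9 lay below 0 (median -0.65). Of all compared genes 8.19% were at least 2-fold lower.

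At 5 days the same genes were closer. Cdk4 stood at 185 and 161 FPKM, Cdk6 at 27.2 and 23.4 FPKM, Cdk2 at 54.9 and 52.0 FPKM, Ccne1 at 59.5 and 43.5 FPKM and Ccne2 at 18.2 and 15.0 FPKM. Ccnd3 differed more than at 3 weeks in FPKM, at 268 in WT and 183 in KO (ratio 0.682, 0.662 to 0.703), while Ccnd2 stood at 43.8 and 44.7 FPKM. None of the 9 was at least 2-fold apart (median -0.21), where 2.77% of all compared genes were higher and 0.82% lower.

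All 10 E2F and DP genes lay below 0 at 3 weeks (median -0.62), with 1 at least 2-fold lower, the dimer partner gene Tfdp1 at 132 and 48.3 FPKM. Of all compared genes 8.19% were at least 2-fold lower at 3 weeks, and their median was -0.08. The activator genes E2f1, E2f2 and E2f3 stood at 15.4 and 11.2 FPKM, 23.8 and 13.9 FPKM, and 7.35 and 4.42 FPKM. Of 20 E2F target genes, a list that repeats Ccne1 and Ccne2, all lay below 0 and 10 were at least 2-fold lower (median -1.0), a count of 6 with a pseudocount of 5 and of 5 with upper-quartile scaling. Among them were the origin gene Orc1 (11.5 and 2.38 FPKM), the ribonucleotide reductase gene Rrm1 (106 and 40.1 FPKM) and the helicase genes Mcm3 (120 and 47.5 FPKM) and Mcm6 (151 and 65.1 FPKM). At 5 days the 20 targets also lay below 0, with none at least 2-fold lower (median -0.27). Of all compared genes 0.82% were lower by that much at 5 days, and their median was -0.02.

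Of 8 cyclin and CDK genes of G2 and M, 1 was at least 2-fold lower at 3 weeks, where 8.19% of all compared genes were. It was Ccnb1, the cyclin of mitotic entry, at 53.4 and 20.8 FPKM, and all 8 lay below 0 (median -0.69). The 8 proliferation markers summed to 972 (WT) and 869 (KO) FPKM at 5 days, and to 785 (WT) and 393 (KO) FPKM at 3 weeks. The DREAM complex joins Rbl1 or Rbl2 to E2F sites in resting cells. Its list of 7 genes also held Mybl2 and Foxm1, which join the core of the complex in dividing cells instead. Of the 7, 6 lay below 0 at 3 weeks and 1 was at least 2-fold lower, the B-Myb gene Mybl2 at 22.1 and 9.35 FPKM (a count of 0 with a pseudocount of 5). The relation of these levels to those of the inhibitors was not tested.

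**Figure D4:**
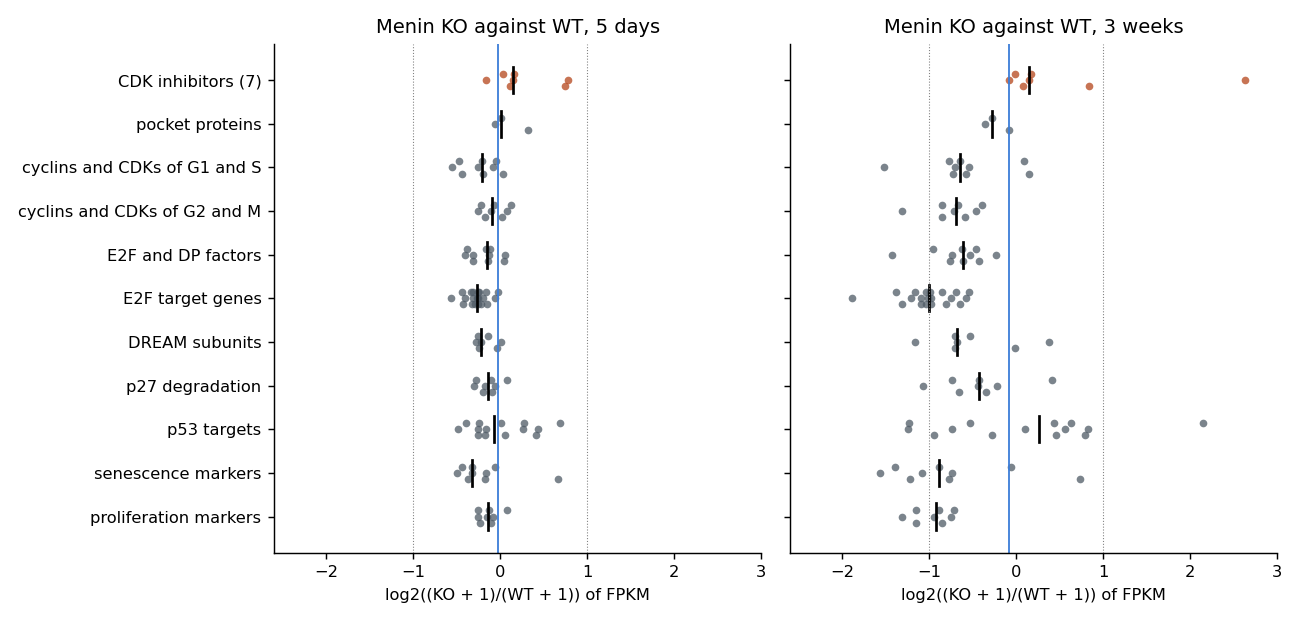
Log2((KO + 1)/(WT + 1)) of FPKM for compared genes of each list at 5 days (left) and 3 weeks (right), 1 point per gene. Black ticks are list medians, the blue line the median of all compared genes (-0.02 and -0.08), and dotted lines 2-fold. At 3 weeks the E2F target genes have a median of -1.0, and Cdkn2b stands alone among the inhibitors at 2.63.

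Factors known to act on the inhibitor genes were listed as well. Of 23 transcription factors, 2 passed the 2-fold line upward and 1 downward in KO at 3 weeks (median -0.04), a share close to that of all compared genes (7.97% higher, 8.19% lower). Myc, which is known to repress Cdkn2b together with Zbtb17, measured 38.4 (WT) and 20.3 (KO) FPKM at 5 days, and 75.8 (WT) and 14.7 (KO) FPKM at 3 weeks. Zbtb17 itself stood at 11.0, 10.7, 9.85 and 9.70 FPKM. Smad3, which carries the TGF-beta signal known to induce Cdkn2b, measured 22.5 (WT) and 11.3 (KO) FPKM at 3 weeks. Klf4, at 0.186 and 3.79 FPKM, and Id2, an inhibitor of E proteins, at 349 and 946 FPKM, were the higher ones, of which Klf4 was not counted with a pseudocount of 5 or a mean of at least 5 FPKM. Trp53 stood at 83.7 and 51.1 FPKM. The part of these factors in the Cdkn2b value was not tested.

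Among 14 matched chromatin regulators of these loci, 3 were lower by 2-fold or more in KO at 3 weeks, and none was higher (0 of 14). They were Men1, Ezh2 (93.6 and 27.3 FPKM) and Suz12 (36.3 and 16.7 FPKM), the last 2 being parts of the Polycomb complex known to keep the Cdkn2a and Cdkn2b locus silent. Men1 is the gene that the KO targets, so its place in the count was given by the design. Suz12 was under the 2-fold line with a pseudocount of 5 and with upper-quartile scaling, which left Ezh2 alone beside Men1. Of all compared genes 8.19% were lower. The part of these regulators in the levels of the inhibitors was not tested. At 5 days 1 was lower, Men1, where 0.82% of all compared genes were, with Ezh2 at 114 and 77.7 FPKM. Kmt2a and Kmt2b had no match under these symbols.

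Of the lists linked to senescence, the markers lay mostly below 0 in KO at 3 weeks, and the secreted factors lay on both sides. The marker list joins genes known to fall in senescent cells with genes known to rise, so its median has no single reading. Of 9 compared senescence markers 4 were lower by 2-fold or more in KO at 3 weeks, none (0) was higher (median -0.89). They were Lmnb1, the lamin gene whose loss accompanies senescence, at 169 and 56.5 FPKM, Hmgb2 at 317 and 120 FPKM, H2afx at 105 and 44.4 FPKM and Suv39h1 at 29.6 and 13.5 FPKM. Suv39h1 was under the line with a pseudocount of 5 and with upper-quartile scaling, which left 3 of 9, and 8.19% of all compared genes were lower. Hmgb2 and H2afx are also abundant in dividing cells. The proliferation markers were lower in the same library (sums of 785 and 393 FPKM), and the relation of any of the 4 to them was not tested. Glb1, the lysosomal beta-galactosidase gene, was the 1 member above 0 and is named here after its values were seen. It measured 44.9 (WT) and 72.0 (KO) FPKM at 5 days, and 40.8 (WT) and 68.4 (KO) FPKM at 3 weeks, so that both KO libraries were high. Of 11 compared secreted factors, 4 were higher and 4 lower (3 higher and 2 lower with a pseudocount of 5). Of all compared genes 7.97% were higher and 8.19% lower. The osteopontin gene Spp1 stood at 44.2 and 424 FPKM and Csf2 at 7.73 and 1.11 FPKM. Il6, a cytokine released by senescent cells, stood at 1.67 FPKM in both 3-week libraries.

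Of 5 compared surface markers of senescent T cells, Klrg1, a receptor gained by them, was at least 2-fold higher in KO at 3 weeks (0.291 and 4.53 FPKM). Cd28 (70.4 and 32.1 FPKM) and Cd27 (9.99 and 3.56 FPKM), costimulatory receptors known to be lost from such cells, were at least 2-fold lower. Tnfsf8 also fell past the 2-fold line (33.6 and 13.4 FPKM), but it is not taken here as a marker that such cells lose. Pdcd1 lay above 0 and under the 2-fold line at 3 weeks. The list joins markers gained with markers lost, so its count of lower genes has no single reading. At 5 days Klrg1 and Pdcd1 were higher and 0 lower, where 2.77% of all compared genes were higher and 0.82% lower. With a pseudocount of 5 the 5-day count was 0, and Klrg1 and Cd27 fell under the line at 3 weeks. Upper-quartile scaling took Cd28 under it, and a mean of at least 5 FPKM left Klrg1 out.

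The genes whose pattern over the 4 libraries was most like that of Cdkn2b, the member with the widest range, were Lilrb4, Gp49a, Wnt9a, Sulf2 and Rnf217. Likeness was the Euclidean distance between centred log2(FPKM + 1) values, 0.11 for Lilrb4 and 0.25 to 0.42 for the others, against 2.28 to 2.92 for the other 7 members. Lilrb4 stood at 30.7, 54.8, 52.3 and 299 FPKM and Gp49a at 29.0, 52.7, 41.4 and 236 FPKM. These 2 are closely related copies between which reads could be split, so each single value is uncertain. With 4 libraries a close match is easily found among 10973 genes, and it is a description only.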

How the data were processed

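RNA of 4 Th2 cell libraries was extracted with TRIzol and sequenced from libraries of a strand-marking mRNA kit, TruSeq Stranded mRNA, as the labels' protocols state. The authors deposited 1 value per gene, taken here as FPKM, since the submitters' processing notes list Cufflinks 2.0.2 and the values match that unit. TopHat 1.3.2 and Bowtie 0.12.8 are listed too, with mm10 as the build. The sources used here do not name the annotation, the read layout, any filter or whether strand was used.

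Lines of the same symbol were summed (240 symbols on 702 lines), and 1 symbol with a spreadsheet error was left out. Compared genes had a mean of at least 1 FPKM (10973 symbols), and ratios were log2((a + 1)/(b + 1)), counted from 1 in size. Depth was inferred from the low values of single-transcript genes (GENCODE M21), at a length reduced by 200 bases: 60.9% to 63.2% of these lay within 0.05 of a whole read. Intervals used the implied reads and the median coding transcript length. Steps were tested on simulated data. Named genes were the 8 members, 16 fixed genes, up to 4 per list by size of the genotype ratio, and the 5 most alike in pattern; Lpar6, Rcbtb2 and Mtap were added for their position, and marker genes and a few list members for their known roles after their values were seen. The members and lists were chosen with earlier results of these data known. Alternatives were other pseudocounts, filters, scalings and handling of repeated symbols. Python 3.11.15, pandas 2.3.3 and scipy 1.17.1 were used.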

Additional observations from a re-analysis of the deposited data

Results flagged for a closer look

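Cdkn1a differed in direction between the culture times by more than counting error. Its log2 difference between KO and WT was 0.19 lower at 3 weeks than at 5 days (-0.19). KO stood above WT at 5 days (115 and 107 FPKM) and below WT at 3 weeks (127 and 135 FPKM). The difference was not tested, since each value is 1 library, and with upper-quartile scaling the 3-week value lay above 0.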

How the results depend on the processing

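No paired analysis was possible because each group held 1 library and the labels give no replicate numbers. For the same reason no library could be left out. With a pseudocount of 0.1, the count of the 8 genes at least 2-fold apart at 5 days went from 0 to 2, Cdkn1c and Cdkn2b, both higher in KO. The WT culture count went from 2 to 1 with a pseudocount of 5 and to 1 with upper-quartile scaling, as Rb1 fell under the line. Cdkn2b at 3 weeks was counted in every alternative run. Of 220 recomputed log2 values of the 8 genes, 3 changed sign, Cdkn1a at 3 weeks with upper-quartile scaling (0.05) and Cdkn2a at 3 weeks with median-of-ratios scaling (0.05) and upper-quartile scaling (0.13), from values of -0.08 and -0.01. With the full transcript length, 0 of 16 counting intervals changed on which side of 1 they lay.

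Over all compared genes, the count at 5 days was 394, 642 with a pseudocount of 0.1 and 178 with one of 5. With a pseudocount of 5 the count was 898 in place of 1773 at 3 weeks, 276 in place of 643 in the WT culture contrast and 468 in place of 959 in the KO one. A mean of at least 5 FPKM gave 421 in the WT culture contrast. A pseudocount of 5 lowers the ratios of low genes by its construction, and the stricter filter leaves fewer genes. Depth limits Cdkn1c most, with about 16 to 89 reads per library.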
